A study of Mus musculus with 12 samples.

Results

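The subject of these results is a set of 9 transcription factor genes of epidermal differentiation: Trp63, Klf4, Klf5, Grhl1, Grhl2, Grhl3, Ovol1, Zfp750 and Tfap2a. They were picked by gene symbol, and all 9 were found among the 25965 genes listed for every library. Messenger RNA was sequenced in 12 libraries of cells from mouse skin, in 6 groups of 2 libraries, in a series on the epidermal growth factor receptor EGFR and hair shaft differentiation. HFSC knockout libraries (L95, L97) carry the genotype label EGFR_delta_LGR5, a deletion tied to Lgr5, and HFSC control libraries (L136, L94) the floxed label EGFR_fl_fl. ORS knockout (E358, E359) and IFE knockout (E358, E359) libraries are labelled EGFR_delta_ep, and ORS control (E341, E344) and IFE control (E341, E360) libraries EGFR_fl_fl. HFSC stands for hair follicle stem cells and ORS for outer root sheath cells. The labels spell IFE as inner root sheath, although the letters commonly stand for interfollicular epidermis, so the abbreviation is kept here. Age, the Cre driver of the epidermal deletion and the number of mice per library are not given in the labels. Whether libraries of 1 group are from different animals is not stated either, so the p-values speak only of the spread among these libraries, part or all of which may be technical.

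As background, stratified epidermis renews from basal keratinocytes that leave the cell cycle, move up as suprabasal cells and finally form the cornified barrier. Trp63 encodes p63, the master regulator of stratified epithelial identity. Klf4, Grhl3 and Zfp750 encode factors needed for late differentiation and barrier formation, and Ovol1 encodes a zinc finger repressor that restrains proliferation as basal cells differentiate. Klf5 is a Krüppel-like factor of proliferating and early differentiating epithelium, Grhl1 controls desmosomal cadherin genes and hair anchorage, Grhl2 maintains epithelial junctions, and Tfap2a encodes AP-2 alpha, an activator of keratin genes that is known to act on EGFR expression in skin. Hair follicles use several of these factors outside the barrier programme.

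Levels are given as CPM, counts per 1e6 gene-assigned reads, scaled by TMM, which sets libraries level on the middle of their gene ratios. Reads in genes were 11.5 to 16.8 M in HFSC libraries, 24.7 to 27.7 M in ORS libraries and 11.4 to 13.2 M in IFE libraries. Egfr stood at 335 and 332 CPM in the HFSC libraries labelled knockout and at 394 and 432 CPM in HFSC control libraries, so the label is not borne out by loss of the transcript there. In ORS, Egfr stood at 3.68 and 54.6 CPM in knockout libraries and at 274 and 246 CPM in controls. IFE knockout libraries held 0 and 0.318 CPM, and IFE controls held 116 and 156 CPM. Reads of Xist and of Y-linked genes marked 5 libraries as male (the HFSC pair labelled knockout, the IFE control pair and E341 of the ORS controls) and the other 7 as female. Genotype and sex therefore cannot be told apart in IFE or in HFSC. Compartment markers mostly followed the labels: Cd34, a bulge stem cell marker, averaged 1576 CPM in HFSC and 3.24 CPM in ORS libraries, with 0 reads in IFE, while Krt10, a suprabasal keratin, averaged 42.5 CPM in ORS and 993 CPM in IFE libraries. Krt25 and Krt28, keratins of the inner root sheath, were at 0 reads in each of the 4 IFE libraries. Other keratins of that sheath had reads there: Krt27 averaged 2.98 CPM in IFE control and Krt71 3.43 CPM in IFE knockout libraries. Krt25 also averaged only 0.0264 CPM in ORS, so its absence does not set IFE apart. The titles number HFSC libraries with L and the others with E, and what this marks is not stated, so compartment and whatever the letters mark cannot be told apart in comparisons with HFSC. In these bulk samples fewer expressing cells and less RNA per cell cannot be told apart.

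Of the 9 genes 8 differed between ORS and IFE, and 0 passed between knockout and control libraries in any compartment. Between ORS and IFE 2 of the 9 were higher in ORS (Grhl1 and Trp63) and 6 were lower in ORS (Klf5, Zfp750, Grhl3, Ovol1, Klf4 and Tfap2a), at a Benjamini-Hochberg adjusted p under 0.05 from limma over all tested genes; only Grhl2 did not pass. Over all 14449 genes tested 15.8% passed in that comparison, 8.35% higher and 7.41% lower in ORS. HFSC exceeded ORS for 4 of the 9 (Zfp750, Klf4, Ovol1 and Klf5) and fell below it for Trp63, against 28.5% of 15251 genes called, 14.6% higher and 13.9% lower. HFSC exceeded IFE for Grhl1, Zfp750, Klf4 and Trp63 and fell below it for Klf5 and Tfap2a, against 36.1% of 15251 genes called, 20% higher and 16.1% lower. The median log2 fold change of the 9 was -1.08 for ORS over IFE and 0.95 for HFSC over ORS, where the median over all genes was 0.12 and 0.05. For HFSC over IFE both medians were small, 0.05 over the 9 and 0.19 over all genes. In control libraries alone only 3 of the 8 calls of ORS over IFE passed (Klf5, Grhl1 and Trp63). Here and below this is a contrast of the control groups, with the spread still taken from the fit of both genotypes. The log2 fold changes of the others kept their sign: -1.26 for Klf4 (adjusted p = 0.0531), -3.40 for Grhl3 (0.0931), -2.54 for Ovol1 (0.185), -2.02 for Zfp750 (0.0861) and -0.50 for Tfap2a (0.354). With sex as a term the values were -0.99 for Klf4 (adjusted p = 0.0707), -2.64 for Grhl3 (0.0683), -3.06 for Ovol1 (0.0705) and -0.75 for Tfap2a (0.0882), and did not pass. Among the ORS and IFE groups sex varied only within the ORS controls (E341 male, E344 female), so the term rests on that pair. The fit returns the values found without ORS control E344, and no effect of sex can be read from them. In control libraries alone HFSC over ORS was 0.67 for Klf5 (adjusted p = 0.268) and 1.85 for Ovol1 (0.203), and HFSC over IFE was 0.14 for Trp63 (0.571), 0.20 for Klf4 (0.687) and 1.13 for Zfp750 (0.111), none of which passed. The scale of the deposited values moves these comparisons as a whole: their divisor is a library total of which genes made up 50.6% to 54.6% in ORS but 26.9% to 29.6% in the other compartments. On that scale the median over all genes shifts by 0.99 for ORS over IFE and by -0.96 for HFSC over ORS. Calls in the first were then 93.4% higher in ORS, against 53% after TMM, and calls in the second 14.1% higher in HFSC, against 51.3% after TMM. Every fold change below is on the TMM scale, as log2(CPM + 0.5), which understates the change of low genes. Changes smaller than those shifts can turn on the deposited scale, and gene lists were read on the TMM scale only.

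**Figure D1:**
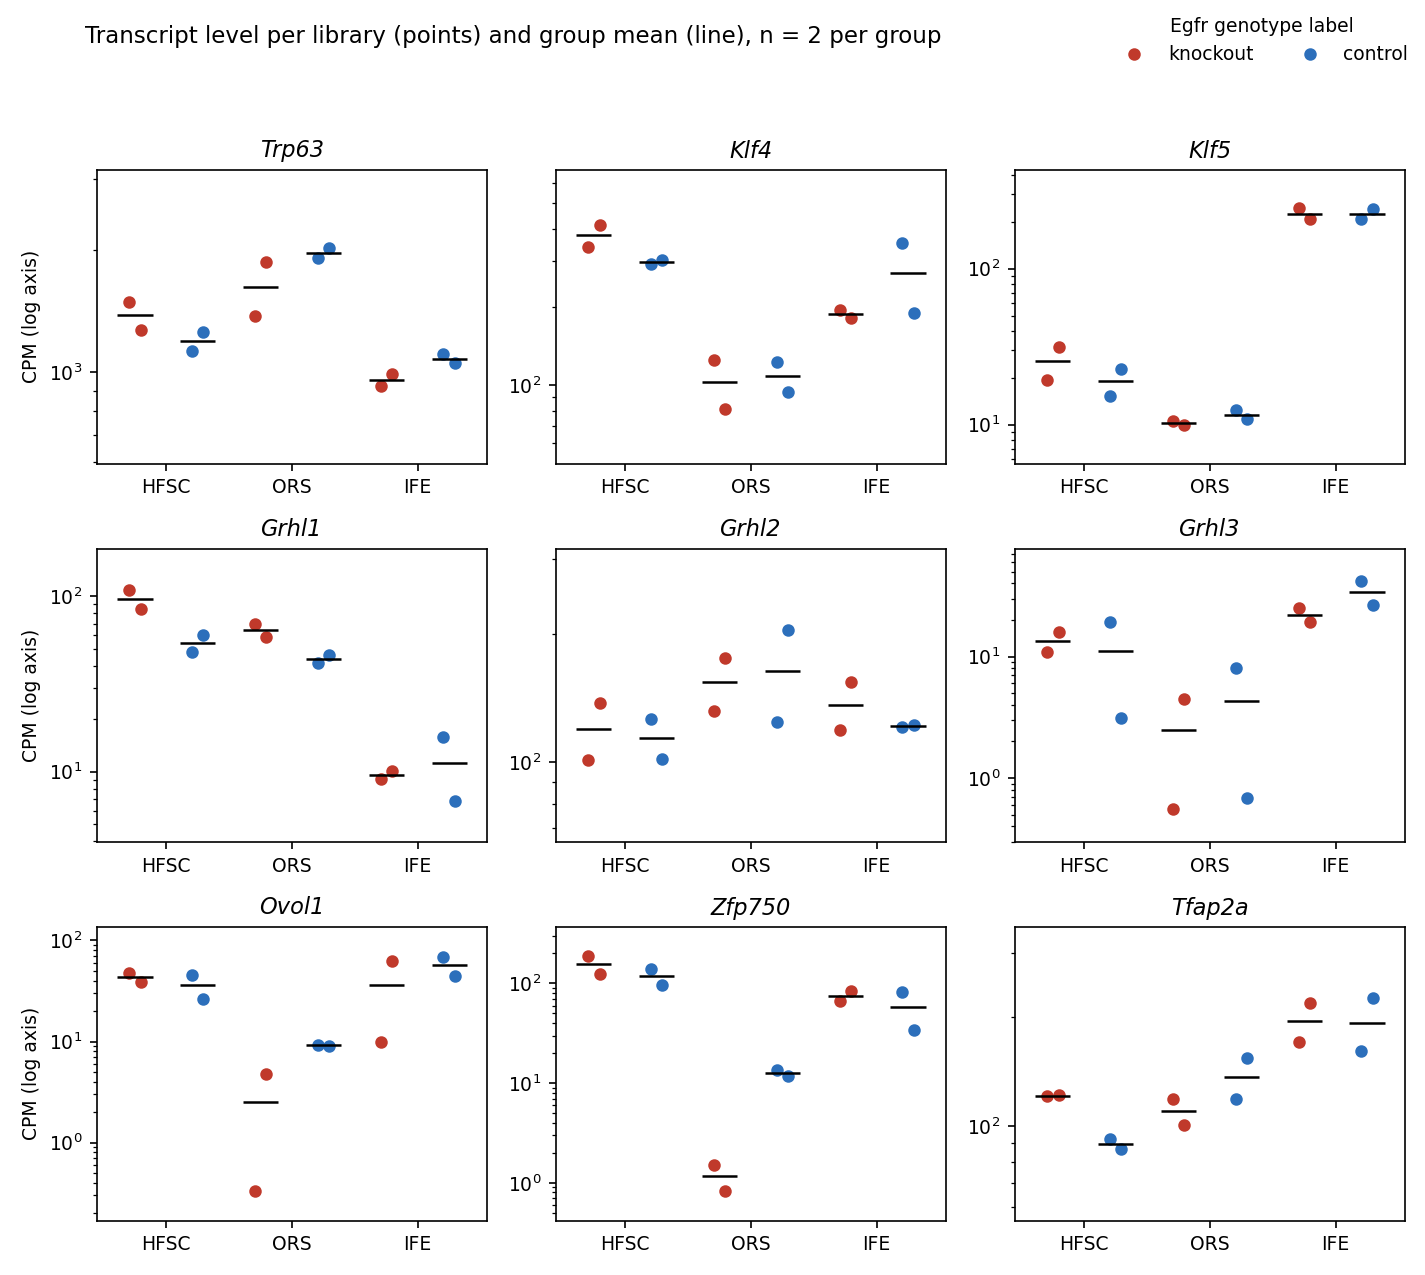
Level of each of the 9 genes in every library (points, CPM on a log axis that differs between panels), by compartment and Egfr genotype label, with the mean of each group as a line (n = 2). Klf5 is high in the 4 IFE libraries (207 to 244 CPM) and Zfp750 lies lowest in the ORS knockout libraries (0.821 and 1.51 CPM), while Grhl2 stays between 101 and 204 CPM throughout.

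Trp63 lies at chr16:25683763-25892102 on the plus strand (mm10) and was the most abundant of the 9 per kb of exon in every compartment. HFSC libraries labelled knockout held 1492 and 1271 CPM, and HFSC controls held 1128 and 1258 CPM. ORS knockout libraries held 1376 and 1867 CPM, and ORS controls held 1918 and 2024 CPM. In IFE, the knockout libraries held 926 and 990 CPM and the controls 1106 and 1054 CPM. Every ORS library was above every IFE library and all 4 HFSC libraries were also above IFE, but HFSC and ORS overlapped through ORS knockout E358. ORS exceeded IFE by 0.81 on the log2 scale (SE 0.12), 1.75-fold, with limma's adjusted p = 0.00133. HFSC fell below ORS by a log2 fold change of -0.47 (SE 0.11, limma's adjusted p = 0.00694). HFSC exceeded IFE by 0.33 (SE 0.11, limma's adjusted p = 0.0335), a call that was lost without each of 7 of the 12 libraries (adjusted p 0.0537 to 0.132). It was kept without IFE knockout E359, without either ORS knockout library, without HFSC control L136 and without HFSC knockout L97, and it was lost by limma-voom (adjusted p = 0.0551). Values per gene do not separate the long and short N-terminal forms of p63.

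The Krüppel-like factors Klf4 (chr4:55527143-55532466, minus strand) and Klf5 (chr14:99298691-99313405, plus strand) differed in where they were high. Klf4 stood at 340 and 413 CPM in HFSC libraries labelled knockout and at 292 and 302 CPM in HFSC controls. In ORS it stood at 125 and 81.4 CPM in knockout libraries and at 123 and 94.3 CPM in controls. IFE values were 195 and 182 CPM in knockout and 352 and 190 CPM in control libraries. The 4 ORS libraries were thus the lowest of the 12 for Klf4, and HFSC and IFE overlapped only through IFE control E341. Klf4 was 3.19-fold higher in HFSC than in ORS (log2 fold change 1.68, SE 0.21, limma's adjusted p = 0.000102), and this call was kept without each library in turn. It fell by 1.08 on the log2 scale in ORS relative to IFE (SE 0.24, limma's adjusted p = 0.0118). Leaving out IFE control E341 (adjusted p = 0.0502), ORS control E344 (adjusted p = 0.057) or ORS knockout E359 (adjusted p = 0.0542) ended that call, and so did the deposited scale (log2 fold change -0.10, or -1.20 relative to its median of all genes, adjusted p = 0.759). The difference of HFSC over IFE was small (log2 fold change 0.60, SE 0.21, limma's adjusted p = 0.0427) and was kept only without IFE control E341 or either ORS knockout library. Without each of the other 9 the adjusted p was 0.0539 to 0.165, and it was 0.0648 on the deposited scale and 0.0685 with no filter on low reads.

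Klf5 stood at 19.4 and 31.4 CPM in HFSC libraries labelled knockout and at 15.2 and 22.8 CPM in HFSC controls. In ORS, the knockout libraries held 10.6 and 9.88 CPM and the controls 12.4 and 10.8 CPM. IFE knockout libraries held 244 and 207 CPM, and IFE controls held 209 and 240 CPM. The 3 compartments did not overlap for Klf5, and the 4 IFE libraries agreed within a narrow range. ORS was 19.7-fold lower than IFE (log2 fold change -4.30, SE 0.24, limma's adjusted p = 3.16e-06), the smallest adjusted p among the 9 in that comparison. HFSC was 10.2-fold lower than IFE (log2 fold change -3.36, SE 0.26, limma's adjusted p = 2.2e-06). Both calls were kept without each library in turn. HFSC was 1.93-fold higher than ORS (log2 fold change 0.95, SE 0.26, limma's adjusted p = 0.0164), which the deposited scale turns to -0.03, or 0.88 relative to its median of all genes. That call was lost without ORS control E344 (adjusted p = 0.0518), HFSC control L94 (adjusted p = 0.0695) or HFSC knockout L97 (adjusted p = 0.0736), and by limma-voom (adjusted p = 0.051). As a ratio of CPM per kb of exon, Klf5 over Klf4 was 0.0446 to 0.0649 in HFSC libraries, 0.0726 to 0.104 in ORS libraries and 0.508 to 1.08 in IFE libraries.

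The grainyhead-like genes Grhl1 (chr12:24572287-24617391, plus strand), Grhl2 (chr15:37233036-37363569, plus strand) and Grhl3 (chr4:135541888-135573630, minus strand) encode related DNA-binding proteins and showed 3 different patterns. Grhl1 stood at 109 and 84.8 CPM in HFSC libraries labelled knockout and at 48.2 and 60.1 CPM in HFSC controls. ORS values were 69.5 and 58.7 CPM in knockout and 41.6 and 46.3 CPM in control libraries. In IFE, the knockout libraries held 9.02 and 10.1 CPM and the controls 15.7 and 6.82 CPM. All 8 follicle libraries were above all 4 IFE libraries for Grhl1, while HFSC and ORS overlapped. Grhl1 was 6.93-fold higher in HFSC than in IFE (log2 fold change 2.79, SE 0.29, limma's adjusted p = 2.01e-05) and 5.11-fold higher in ORS than in IFE (log2 fold change 2.35, SE 0.37, limma's adjusted p = 0.0019). Neither call was lost without any single library. HFSC over ORS gave a log2 fold change of 0.44 for Grhl1, with a 95% interval from -0.20 to 1.08 (limma's adjusted p = 0.298), and the deposited scale turns this to -0.57, or 0.34 relative to its median of all genes.

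Grhl3, unlike Grhl1, had its highest levels in IFE. HFSC libraries labelled knockout held 10.9 and 15.9 CPM, and HFSC controls held 19.1 and 3.10 CPM. ORS knockout libraries held 0.552 and 4.44 CPM, and ORS controls held 8.0 and 0.688 CPM. IFE values were 24.9 and 19.4 CPM in knockout and 41.6 and 26.4 CPM in control libraries. Libraries of the same group differed widely in HFSC control and in both ORS groups, where the values rested on 15 to 227 reads in ORS. All 4 IFE libraries were nevertheless the highest of the 12. ORS fell below IFE by 3.35 on the log2 scale (SE 0.75, limma's adjusted p = 0.0132). Leaving out IFE control E341 (adjusted p = 0.057) or ORS knockout E358 (adjusted p = 0.0531) lost that call. HFSC over ORS gave a log2 fold change of 2.0 with a 95% interval from 0.35 to 3.64 and did not pass (limma's adjusted p = 0.0675). It did pass without ORS control E341 (adjusted p = 0.0262), ORS knockout E359 (adjusted p = 0.0403) or HFSC control L94 (adjusted p = 0.0397). HFSC over IFE gave -1.36, with a 95% interval from -3.00 to 0.29 (limma's adjusted p = 0.184).

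Grhl2 did not pass in any comparison. HFSC libraries labelled knockout held 101 and 138 CPM, and HFSC controls held 126 and 102 CPM. In ORS, the knockout libraries held 132 and 176 CPM and the controls 124 and 204 CPM. IFE knockout libraries held 119 and 154 CPM, and IFE controls held 121 and 122 CPM. All 3 compartments overlapped. The 95% intervals of the log2 fold change were -0.87 to 0.02 for HFSC over ORS, -0.59 to 0.30 for HFSC over IFE and -0.19 to 0.75 for ORS over IFE. On the deposited scale 2 of these passed, but relative to the median of all genes they were -0.53 for HFSC over ORS and 0.16 for ORS over IFE, against -0.48 and 0.16 after TMM. Of its exons 169 bp (1.96%) overlap the antisense gene Gm16136, which held 85.2 to 144 CPM, and the strand of counting is not given in the sources used here, so a part of the reads could belong to either.

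As shares of the summed CPM per kb of the 3 grainyhead-like genes, Grhl1 made up 28.9% to 55.7% in HFSC libraries, 25.9% to 44.8% in ORS libraries and 4.97% to 8.94% in IFE libraries. Grhl3 made up 4.67% to 22.7% in HFSC, 0.706% to 11.6% in ORS and 26.1% to 46.9% in IFE. Grhl2 made up 33.2% to 49.8%, 54.5% to 73.4% and 44.2% to 67.1% in the same compartments. Grhl1 thus had a larger share than Grhl3 in every HFSC and ORS library, and a smaller share in every IFE library. The share of Grhl2 varied as well. Grhl1 exceeded it in HFSC library L95, labelled knockout (55.7% against 33.2%), and Grhl3 exceeded it in IFE control E341 (46.9% against 44.2%). These shares are a description of the same reads and were not tested. Shares of the pair of Krüppel-like genes showed Klf5 at 4.27% to 6.09% in HFSC, 6.77% to 9.40% in ORS and 33.7% to 51.9% in IFE.

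**Figure D2:**
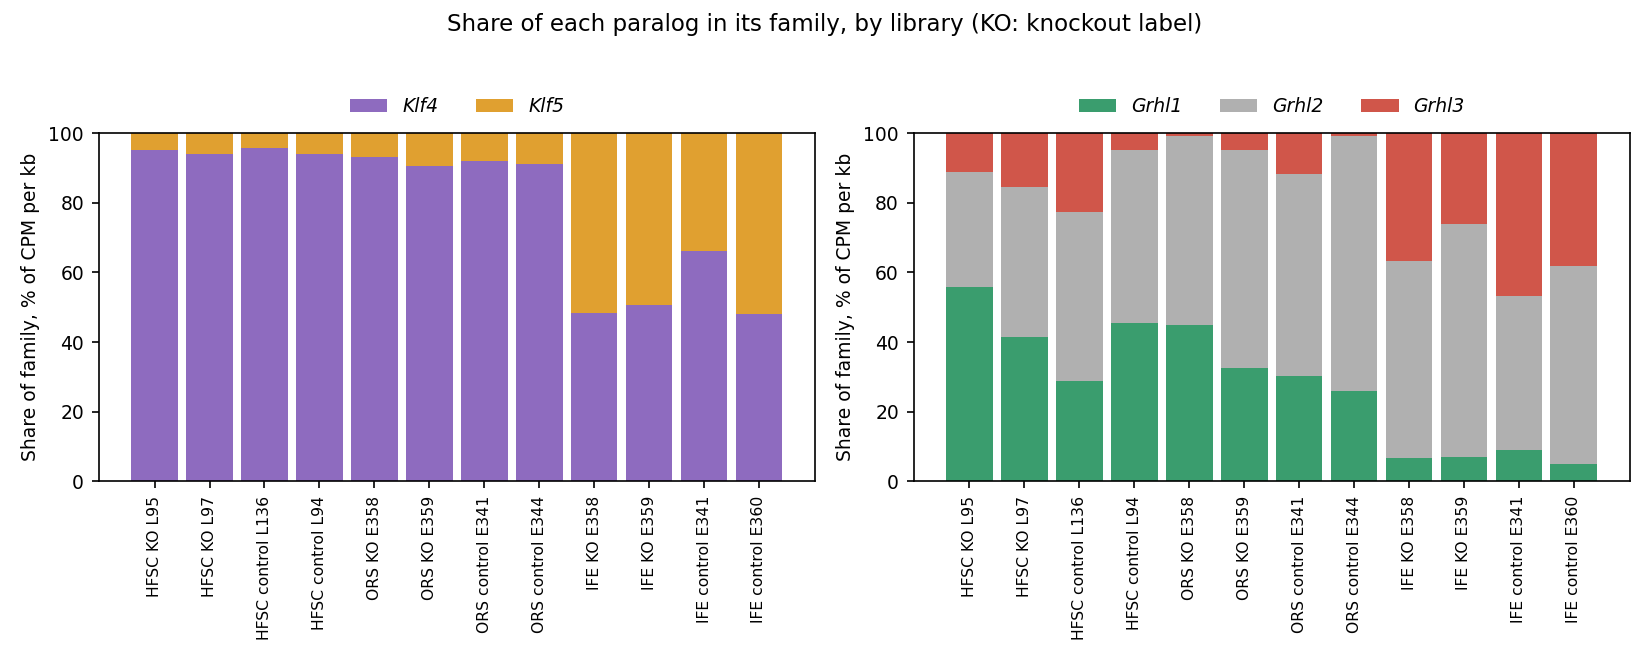
Share of each gene in the summed CPM per kb of its family, per library, for Klf4 and Klf5 (left) and Grhl1, Grhl2 and Grhl3 (right); KO marks the knockout label. Klf5 takes 33.7% to 51.9% in IFE libraries and at most 9.40% elsewhere, and Grhl1 takes at most 8.94% in IFE libraries and at least 25.9% elsewhere.

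Ovol1 (chr19:5549137-5560575, minus strand) and Zfp750 (chr11:121510978-121519333, minus strand), a zinc finger gene whose human counterpart ZNF750 is induced by p63 in differentiating keratinocytes, were both lowest in ORS. Ovol1 stood at 48.2 and 38.6 CPM in HFSC libraries labelled knockout and at 45.7 and 26.1 CPM in HFSC controls. ORS knockout libraries held 0.331 and 4.77 CPM (9 and 128 reads), and ORS controls held 9.31 and 9.10 CPM. In IFE, the knockout libraries held 9.82 and 62.2 CPM and the controls 69.4 and 44.8 CPM. Every ORS library was below every other library for Ovol1, although IFE knockout E358 came close. Ovol1 was 8.68-fold higher in HFSC than in ORS (log2 fold change 3.12, SE 0.64, limma's adjusted p = 0.00305). It fell by 3.07 on the log2 scale in ORS relative to IFE (SE 0.72, limma's adjusted p = 0.0165). Leaving out IFE control E341 (adjusted p = 0.0686), ORS control E341 (adjusted p = 0.0538), ORS control E344 (adjusted p = 0.0553) or ORS knockout E358 (adjusted p = 0.0555) ended the second call. HFSC over IFE gave 0.05, with a 95% interval from -1.34 to 1.43 (limma's adjusted p = 0.964). In the annotation 690 bp (19.8%) of the exons of Ovol1 overlap a pseudogene on the opposite strand, Gm31166, which was not analysed here.

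Zfp750 stood at 187 and 123 CPM in HFSC libraries labelled knockout and at 140 and 97.1 CPM in HFSC controls. ORS knockout libraries held 1.51 and 0.821 CPM (41 and 22 reads), and ORS controls held 13.6 and 11.9 CPM (387 and 310 reads). IFE values were 66.7 and 84.1 CPM in knockout and 82.5 and 34.0 CPM in control libraries. The 3 compartments did not overlap, with HFSC highest and ORS lowest. Zfp750 was 28.8-fold higher in HFSC than in ORS (log2 fold change 4.85, SE 0.33, limma's adjusted p = 1.57e-06) and 13.7-fold lower in ORS than in IFE (log2 fold change -3.78, SE 0.43, limma's adjusted p = 0.000279). Both were kept without each library in turn. In control libraries alone the second was -2.02 and did not pass (adjusted p = 0.0861). The first was also narrower in controls, with means of 119 CPM in HFSC and 12.7 CPM in ORS, against 137 and 6.96 CPM over both genotypes. HFSC over IFE was 2.10-fold (log2 fold change 1.07, SE 0.33, limma's adjusted p = 0.0247). That call was lost without IFE knockout E358 (adjusted p = 0.0606), IFE control E360 (adjusted p = 0.0919), HFSC control L136 (adjusted p = 0.0997) or HFSC knockout L95 (adjusted p = 0.107). The gene lies inside Tbcd on the opposite strand with 0 bp of shared exon. Tbcd, a tubulin folding cofactor, held 41.3 to 66.0 CPM in HFSC, 37.4 to 50.1 CPM in ORS and 23.6 to 86.0 CPM in IFE libraries.

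Tfap2a (chr13:40715675-40733823, minus strand) spanned 86.5 to 225 CPM over the 12 libraries. HFSC libraries labelled knockout held 121 and 122 CPM, and HFSC controls held 92.4 and 86.5 CPM. ORS values were 119 and 101 CPM in knockout and 119 and 154 CPM in control libraries. IFE knockout libraries held 171 and 219 CPM, and IFE controls held 161 and 225 CPM. The 4 IFE libraries were the highest of the 12, and HFSC and ORS overlapped. HFSC was 1.84-fold lower than IFE (log2 fold change -0.88, SE 0.17, limma's adjusted p = 0.00184), a call kept without each library in turn. ORS fell below IFE by 0.66 on the log2 scale (SE 0.19, limma's adjusted p = 0.0437), and the deposited scale turns this to 0.33, or -0.78 relative to its median of all genes. It was kept only without IFE control E341 or IFE knockout E358; without each of the other 6 libraries the adjusted p was 0.0653 to 0.17, and it was 0.0919 without TMM scaling and 0.067 with no filter on low reads. HFSC over ORS gave -0.22, with a 95% interval from -0.59 to 0.16 (limma's adjusted p = 0.383).

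**Figure D3:**
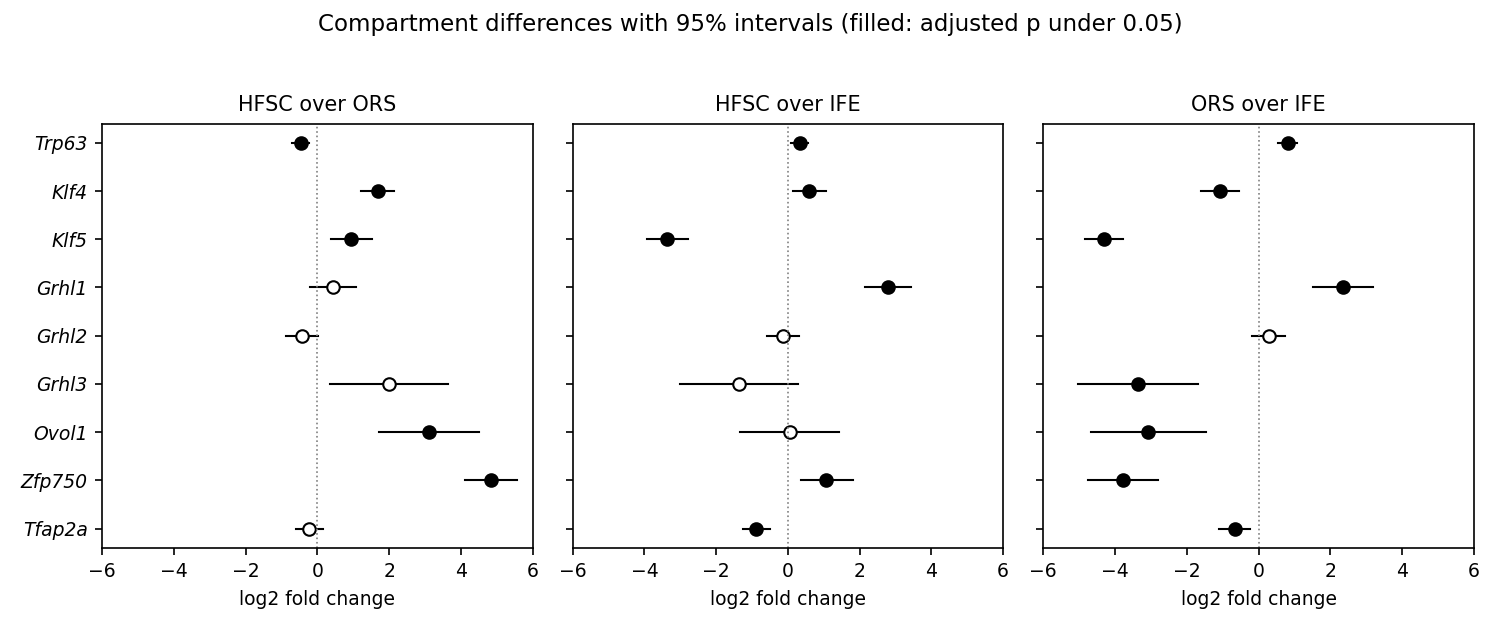
Log2 fold change of each gene between compartments over both genotypes (points, with 95% intervals), for HFSC over ORS (left), HFSC over IFE (centre) and ORS over IFE (right); filled points passed at an adjusted p under 0.05. Klf5 lies at -3.36 over IFE in HFSC and at -4.30 in ORS, Grhl1 at 2.79 and 2.35, and Grhl2 crosses 0 in all panels.

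Per kb of annotated exon, Trp63 averaged 153 ± 18.0 CPM in HFSC, 214 ± 34.3 CPM in ORS and 121 ± 9.31 CPM in IFE libraries (SD, n = 4 each). Klf4 came second in HFSC at 110 ± 18.1 CPM per kb and in IFE at 75.3 ± 26.8 CPM per kb, and stood at 34.7 ± 6.99 CPM per kb in ORS beside Tfap2a at 31.9 ± 5.73 CPM per kb. Klf5 averaged 63.0 ± 5.52 CPM per kb in IFE, between Klf4 and Tfap2a (50.4 ± 8.53 CPM per kb). At the other end, Ovol1 averaged 1.72 ± 1.24 and Grhl3 1.23 ± 1.27 CPM per kb in ORS, and Grhl1 1.88 ± 0.685 CPM per kb in IFE. The least abundant of the 9 was therefore Grhl3 in HFSC (4.4 ± 2.5 CPM per kb) and in ORS, and Grhl1 in IFE.

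The promoter sequences of Klf4, Grhl1 and Grhl3 are shown, of which Klf4 and Grhl3 were lower, and Grhl1 higher, in ORS than in IFE. They are the 250 bases before the RefSeq start sites (GRCm38.p6, 4 of the 9 genes matched; Grhl1 by the first of its start sites), 5′ to 3′ on the gene's strand, from chr4:55532476-55532725 (minus strand), chr12:24572037-24572286 (plus strand) and chr4:135573633-135573882 (minus strand). Capitals mark matches to any of the motifs searched on both strands.
Klf4: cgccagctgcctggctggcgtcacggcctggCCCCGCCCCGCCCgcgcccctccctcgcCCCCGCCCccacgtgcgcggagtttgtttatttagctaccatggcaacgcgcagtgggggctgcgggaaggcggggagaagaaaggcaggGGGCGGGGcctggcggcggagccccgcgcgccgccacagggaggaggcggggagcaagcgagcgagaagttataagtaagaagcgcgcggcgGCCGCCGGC
Grhl1: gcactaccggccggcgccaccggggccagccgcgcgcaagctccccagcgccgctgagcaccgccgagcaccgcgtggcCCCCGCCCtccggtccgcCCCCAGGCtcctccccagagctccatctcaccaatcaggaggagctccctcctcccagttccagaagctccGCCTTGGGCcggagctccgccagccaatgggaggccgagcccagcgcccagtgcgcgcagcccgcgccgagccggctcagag
Grhl3: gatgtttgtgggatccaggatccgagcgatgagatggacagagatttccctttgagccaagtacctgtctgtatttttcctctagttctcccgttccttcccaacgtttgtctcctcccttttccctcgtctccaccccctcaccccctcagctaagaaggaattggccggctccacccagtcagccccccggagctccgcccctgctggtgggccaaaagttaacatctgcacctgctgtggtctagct
The motifs were AACCGGTT and AACNGGTT (grainyhead-like), GCCNNNGGC (AP-2), CCACACCC and CCCCGCCC (Krüppel-like) and CCNNAGGC (ZNF750). The OVO factors were searched as CCGTTA. The AP-1 factors were searched as TGANTCA. The TATA box was searched as TATAAA. In Klf4, CCCCGCCC matched at -219, -214, -191 and, on the other strand, -101, where -219 and -214 overlap, and GCCNNNGGC matched at -9. In Grhl1, CCCCGCCC matched at -171, CCNNAGGC at -153 and -82, and GCCNNNGGC at -82, overlapping the second of these. The Grhl3 window held no match. Tfap2a, also lower in ORS than in IFE, had 2 windows with 0 matches, which are not printed. Over 32851 RefSeq promoters of the same length, CCCCGCCC was in 16.1%, GCCNNNGGC in 13.7% and CCNNAGGC in 20.4%. The other motifs were in 0.116% (AACCGGTT), 1.79% (AACNGGTT), 3.2% (CCACACCC), 2.18% (OVO), 6.75% (AP-1) and 12.4% (TATA box) of them. G and C made up 74.0% of the Klf4 window, 75.6% of the Grhl1 window and 56.0% of the Grhl3 window, with 32, 27 and 8 CpG, against medians of 52.4% and 6 over all promoters. A match of letters is a description and not a binding site.

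Genes of the programmes around these factors were read in the same fits. The list counts here and below stand beside the shares of all tested genes called. These were 15.8% for ORS over IFE, 28.5% for HFSC over ORS and 36.1% for HFSC over IFE. Of 12 suprabasal genes 7 were lower and 1 higher in ORS than in IFE, with a median log2 fold change of -2.03. Krtdap, a keratinocyte differentiation protein, had a log2 fold change of -4.88 in ORS over IFE (limma's adjusted p = 2.12e-07). Dsg1a, a desmoglein of upper layers, averaged 19.1 ± 4.97 CPM in ORS and 428 ± 108 CPM in IFE libraries (SD, n = 4 each; limma's adjusted p = 4.07e-06), while Calml3, a calmodulin-like protein, was higher in ORS at 57.4 ± 56.3 CPM, against 1.06 ± 2.11 CPM in IFE (limma's adjusted p = 0.00107). Of 21 tested terminal differentiation genes 5 were lower and 1 higher in ORS. The transglutaminase genes split: Tgm3 averaged 0.282 CPM in ORS and 69.2 CPM in IFE (limma's adjusted p = 6.37e-05), and Tgm5 averaged 200 CPM in ORS and 25.8 CPM in IFE (limma's adjusted p = 8.78e-05). Of 12 basal keratinocyte genes 6 were lower and 0 higher in ORS, among them Krt14 at 1639 ± 204 CPM in ORS and 9710 ± 1338 CPM in IFE (limma's adjusted p = 1.94e-06). Members of both the basal and the suprabasal list were thus lower in ORS than in IFE.

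HFSC exceeded ORS for 7 of 12 suprabasal genes and fell below it for 1, with a median log2 fold change of 1.86. Sbsn, the suprabasal protein suprabasin, averaged 2075 ± 187 CPM in HFSC and 73.2 ± 26.5 CPM in ORS (limma's adjusted p = 1.35e-07), whereas Krtdap averaged 61.3 ± 18.4 CPM in HFSC and 175 ± 62.9 CPM in ORS (limma's adjusted p = 0.000287). Of 21 tested terminal differentiation genes 10 were higher and 3 lower in HFSC than in ORS. Ppl, the desmosomal linker periplakin, averaged 230 ± 72.5 CPM in HFSC and 43.4 ± 18.4 CPM in ORS (limma's adjusted p = 4.69e-05). Sprr1a, a cornified envelope precursor, averaged 184 ± 158 CPM in HFSC and 9.67 ± 14.3 CPM in ORS (limma's adjusted p = 0.000161). Lor, the cornified envelope protein loricrin, ran the other way, at 0.0495 CPM in HFSC and 11.1 ± 12.5 CPM in ORS (limma's adjusted p = 0.0166). Relative to IFE, HFSC was higher for 3 and lower for 7 of 12 suprabasal genes and higher for 8 and lower for 5 of 21 terminal genes. Krt1 averaged 11.3 ± 6.22 CPM in HFSC and 1110 ± 471 CPM in IFE (limma's adjusted p = 3.49e-06). Basal genes were higher in HFSC than in ORS for 6 of 12 and lower for 0, and relative to IFE 4 were higher and 3 lower.

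Of 25 other epidermal transcription factor genes 8 were higher and 7 lower in ORS than in IFE. Prdm1, encoding the repressor BLIMP1, averaged 80.4 ± 23.1 CPM in ORS and had 0 reads in all IFE libraries (limma's adjusted p = 2.02e-05). Gata3, a regulator of inner root sheath and epidermal differentiation, averaged 321 ± 30.2 CPM in ORS and 942 ± 65.2 CPM in IFE (limma's adjusted p = 1.89e-05). The POU genes Pou3f1 and Pou2f3 were both lower in ORS, Pou2f3 at 37.3 ± 8.62 CPM in ORS and 235 ± 39.9 CPM in IFE (limma's adjusted p = 4.2e-05). Foxc1, a forkhead gene of follicle stem cells, averaged 113 ± 27.5 CPM in ORS and 9.19 ± 4.22 CPM in IFE (limma's adjusted p = 0.000216). Of 24 tested, 11 were higher and 3 lower in HFSC than in ORS, and 10 higher and 5 lower in HFSC than in IFE. Hr, the hairless corepressor, averaged 391 ± 73.6 CPM in HFSC, 103 ± 24.2 CPM in ORS and 35.3 ± 6.22 CPM in IFE, with limma's adjusted p = 2.15e-05 over ORS and 2.26e-07 over IFE. Maf, a factor of human epidermal differentiation, averaged 541 ± 22.2 CPM in HFSC, 116 ± 30.5 CPM in ORS and 104 ± 17.8 CPM in IFE (limma's adjusted p = 2.75e-06 over ORS and 9.85e-07 over IFE).

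Junction and polarity genes, which include known targets of grainyhead-like factors, were lower in ORS than in IFE for 3 of 12 tested and higher for 0. Rab25, a vesicle trafficking GTPase, averaged 98.8 ± 8.02 CPM in HFSC, 30.9 ± 6.12 CPM in ORS and 162 ± 34.9 CPM in IFE. Its adjusted p by limma was 0.00016 for HFSC over ORS and 0.000204 for ORS over IFE. HFSC was higher than ORS for 8 of 12 and lower for 0, among them Cldn1, a tight junction claudin, at 550 ± 142 CPM in HFSC and 257 ± 57.4 CPM in ORS (limma's adjusted p = 0.000129). HFSC was higher than IFE for 4 of 12 and lower for 1, a share near the 36.1% of all genes called there. Among the mesenchymal regulators, which Grhl2 and Ovol1 are known to oppose in epithelia, 4 of 9 passed the filter on low reads, and Vim averaged 2.29 ± 1.61 CPM in HFSC, 13.7 ± 4.79 CPM in ORS and 0.0198 CPM in IFE. Vim was the 1 gene of that list called in ORS over IFE (limma's adjusted p = 0.000583) and in HFSC over ORS, where it was lower (limma's adjusted p = 0.00981). In HFSC over IFE 2 of the 4 were higher, where 36.1% of all genes were called. They were Vim (limma's adjusted p = 0.0291) and Snai2, at 311 ± 84.1 CPM in HFSC and 200 ± 29.3 CPM in IFE (limma's adjusted p = 0.0152).

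Knockout and control libraries were compared within each compartment for the same 9 genes. In HFSC 0 of the 9 passed, where 0.0363% of 13778 genes tested did (5 genes; 1047 at an unadjusted p under 0.05, and 0 called by limma-voom). All 9 fitted log2 fold changes were above 0, from 0.06 to 0.83 with a median of 0.38, against a median of 0 over all genes. The shared sign depended on single libraries. Without HFSC control L94 the values were -0.09 for Grhl2, -0.52 for Grhl3 and -0.08 for Ovol1. Without HFSC library L97, labelled knockout, the value for Grhl2 was -0.16. For 4 of the 9, Trp63, Klf4, Grhl1 and Tfap2a, both libraries labelled knockout were above both controls, where 37.8% of all genes did not overlap, 19.2% higher and 18.6% lower. Grhl1 averaged 97 ± 17.3 CPM in the libraries labelled knockout and 54.2 ± 8.40 CPM in controls (SD, n = 2 each). Its log2 fold change of 0.83 (95% interval 0.26 to 1.40) had an unadjusted p of 0.0107 and did not pass (limma's adjusted p = 0.52). Tfap2a averaged 122 ± 0.61 CPM in the libraries labelled knockout and 89.5 ± 4.16 CPM in controls, a log2 fold change of 0.44 (95% interval 0.01 to 0.88, limma's adjusted p = 0.647). Beside these, the summed hair follicle stem cell markers were 26378 to 31567 CPM in the libraries labelled knockout and 42379 to 43691 CPM in controls, and 0 of those 11 markers passed. Krt15, a keratin of the bulge, made up most of the sum at 21387 ± 2934 CPM in the libraries labelled knockout and 34968 ± 3029 CPM in controls. The part of that difference, and of sex, in the result was not tested.

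In ORS 0 of the 9 passed, as did 0% of 14449 genes (limma; 492 at an unadjusted p under 0.05, and 0 by limma-voom). Zfp750 had the smallest unadjusted p of the 9. Its knockout libraries held 1.51 and 0.821 CPM (41 and 22 reads) and its controls 13.6 and 11.9 CPM. Knockout was 8.12-fold lower by the fit on log2(CPM + 0.5) and 10.9-fold lower by the ratio of mean CPM. The log2 fold change of -3.02 (SE 0.61, 95% interval -4.38 to -1.66) had an unadjusted p of 0.000545 but an adjusted p of 1 by limma. It was -3.32 to -2.72 without each library in turn and adjusted p stayed at 0.719 or above. Within the same model the ORS effect on Zfp750 minus the IFE effect was -3.52 (SE 0.87, unadjusted p = 0.00217, limma's adjusted p = 0.999), a difference that also did not pass among 14449 genes, of which 0% did (692 at an unadjusted p under 0.05). Ovol1 at 0.331 and 4.77 CPM in knockout libraries lay below 9.31 and 9.10 CPM in controls (log2 fold change -2.21, 95% interval -4.47 to 0.05, limma's adjusted p = 1), and without ORS knockout E358 the value was -0.88. In all, 5 of the 9 were lower in both knockout libraries than in both controls (Trp63, Klf5, Ovol1, Zfp750 and Tfap2a) and Grhl1 was higher in both. Over all genes 31.5% did not overlap, 14.4% higher and 17.1% lower. Some gaps were narrow: the nearest knockout and control libraries held 1867 and 1918 CPM for Trp63 and 10.6 and 10.8 CPM for Klf5. For Tfap2a both round to 119 CPM. Grhl1 averaged 64.1 ± 7.67 CPM in knockout and 44.0 ± 3.34 CPM in control libraries (SD, n = 2 each; log2 fold change 0.54, 95% interval -0.63 to 1.70).

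The terminal differentiation list did not move one way in the same ORS libraries. Its median log2 fold change was -0.15, and it summed to 322 to 717 CPM in ORS knockout and 361 to 417 CPM in ORS control libraries. The members with the smallest p were low in knockout: Sprr1a averaged 0.0559 CPM in knockout and 19.3 ± 15.7 CPM in control libraries, and Klk7, a protease of the cornified layer, averaged 0.0552 CPM in knockout and 15 ± 4.54 CPM in control libraries (limma's adjusted p = 1 for each). Others, named after their values were seen, had higher means in knockout: Flg, encoding filaggrin, averaged 78.2 ± 109 CPM in knockout and 7.35 ± 7.75 CPM in control libraries, and Casp14, a caspase of cornification, 22.2 ± 9.56 CPM in knockout and 6.27 ± 8.0 CPM in control libraries. Suprabasal genes summed to 1427 to 2868 CPM in ORS knockout and 2002 to 2543 CPM in ORS control libraries. The 9 sebaceous markers summed to 172 to 237 CPM in ORS knockout and 249 to 397 CPM in ORS control libraries, with Awat1 and Mc5r at 0 in both knockout libraries and none at 0 in both controls. Elovl3, a fatty acid elongase of sebocytes, averaged 0.0559 CPM in knockout and 12.7 ± 10.6 CPM in control libraries (limma's adjusted p = 1). The part of sebaceous cells in the ORS values of Zfp750 and Ovol1 was not tested.

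In IFE 0 of the 9 passed, as did 0% of 14449 genes (limma; 1090 at an unadjusted p under 0.05, and 0 by limma-voom). Egfr itself, nearly absent from the IFE knockout libraries, did not pass (log2 fold change -7.73, limma's adjusted p = 0.0846 in IFE; -4.10, limma's adjusted p = 1 in ORS), so a gene that does not pass here is not shown to be without change. The fitted log2 fold changes ran from -1.15 for Ovol1 to 0.50 for Zfp750, with a median of -0.12, against -0.04 over all genes. Trp63 and Grhl3 were lower in both knockout libraries than in both controls, where 30.7% of all genes did not overlap, 13.3% higher and 17.4% lower. Klf5 averaged 225 ± 26.5 CPM in knockout and 225 ± 21.5 CPM in control libraries (SD, n = 2 each), and the 95% interval of its log2 fold change was -0.75 to 0.76. Ovol1 averaged 36 ± 37 CPM in knockout and 57.1 ± 17.4 CPM in control libraries, the low mean resting on IFE knockout E358 at 9.82 CPM (without it the log2 fold change was 0.16). The terminal differentiation list had a median log2 fold change of -1.69 in IFE over 21 tested genes, against -0.04 over all genes. By limma 5 of the 21 had an unadjusted p under 0.05. The list summed to 541 to 549 CPM in IFE knockout and 589 to 1072 CPM in IFE control libraries. Across all 13 lists beside the 9 genes, 0 genes passed in any of the 3 knockout comparisons.

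**Figure D4:**
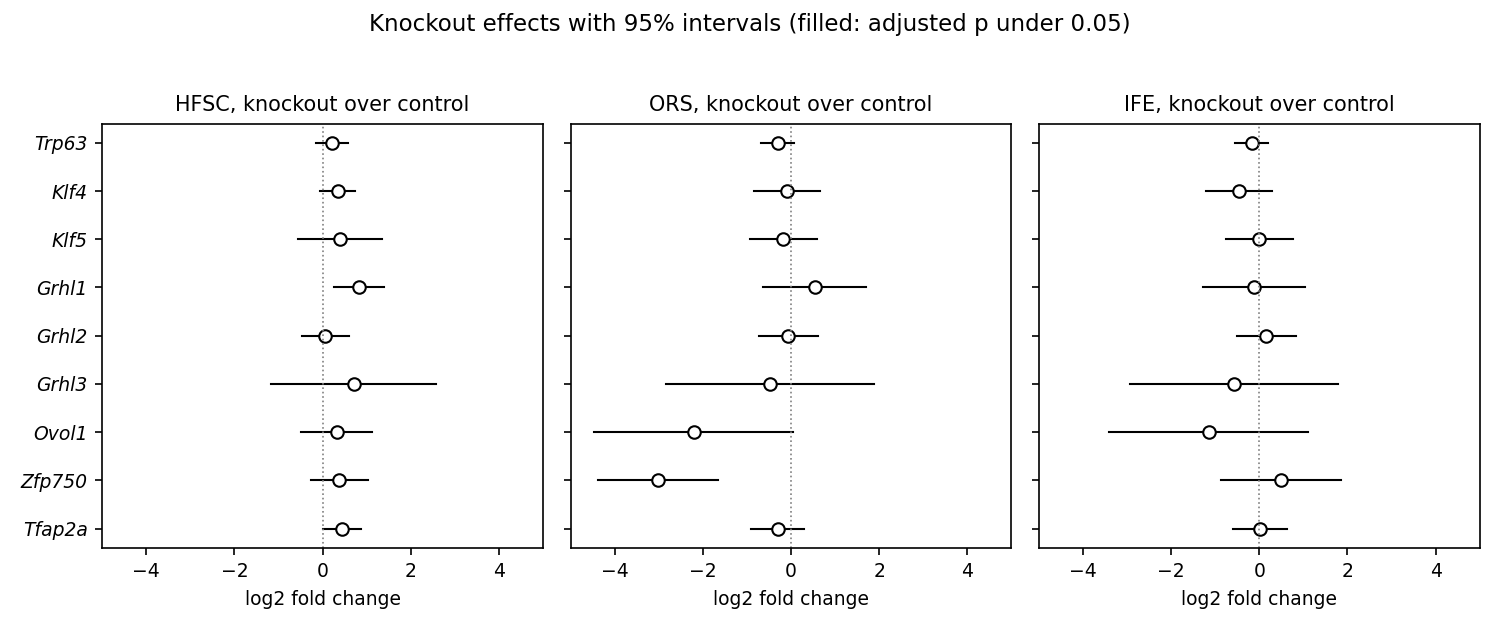
Log2 fold change of each gene in knockout over control libraries (points, with 95% intervals), in HFSC (left), ORS (centre) and IFE (right); no point is filled because none passed at an adjusted p under 0.05. Zfp750 in ORS lies at -3.02 with an interval from -4.38 to -1.66. All 9 points lie above 0 in HFSC, where only the intervals of Grhl1 and Tfap2a exclude 0.

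The genes most like each factor were ranked by the root mean square difference of centred group means of log2(CPM + 0.5) over the 6 groups, among 10036 other genes averaging at least 10 CPM. Klf5 was nearest to Klk10, a kallikrein-related protease (0.34), and Tppp3 (0.38). Grhl1 was nearest to Myo1d, an unconventional myosin (0.27), and B3gnt2 (0.28). Zfp750 was nearest to Usp18 (0.30) and Egln3 (0.51), and Ovol1 to Ifngr1 (0.35) and Abcg1 (0.39). The nearest to Trp63, Klf4, Grhl2 and Tfap2a, in that order, were Zfp266 (0.06), Tuba4a (0.12), Hs2st1 (0.04) and Mtch2 (0.09), where the median over the pool was 0.60 for Trp63, 0.88 for Klf4, 0.51 for Grhl2 and 0.63 for Tfap2a. That median was 1.94 for Klf5, 1.32 for Grhl1, 1.72 for Ovol1 and 2.34 for Zfp750. Genes that vary little over the groups lie close together by this measure. Among the 9 themselves Trp63 and Grhl2 were closest (0.27), followed by Grhl2 and Tfap2a (0.43). The second value is not far below the pool medians of Grhl2 (0.51) and Tfap2a (0.63). Grhl3 with Ovol1 (0.81) and Klf5 with Grhl3 (0.84) were nearer to each other than Grhl1 was to either Klf5 (3.04) or Zfp750 (2.79). These distances rest on 6 group means that share libraries and say nothing of shared control.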

How the data were processed

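The deposited values are log2 reads per 1e6 of a library total, as read from the values themselves, in which a gene of no read stands at the log2 of 0.9 read. Tools listed without a role by the submitters' processing notes are Trim Galore and DESeq2, with the build mm10. Which aligner, counter, annotation and strand setting made the counts is not given in the sources used here. Per the labels, a PicoPure kit gave the RNA, a SMARTer Ultra kit the cDNA, and reads were paired, of 150 bp. Whole reads were recovered from the log2 values (at least 99.99% of the values above the floor within 0.2 reads). A count of 0 allows up to 0.108 to 0.263 CPM per library (3 counts; counting error only, and reads without molecular identifiers are not independent molecules). Replicate pairs differed by 43.0 to 144.6 in chi-square per degree of freedom, far above sampling noise. All 13 mitochondrially encoded genes had 0 reads.

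TMM scaling (trims of 30% and 5%) was computed over all 12 libraries. The test was limma 3.58.1, with its trend and robust options, in R 4.3.3 (with statmod 1.5.0), on log2(CPM + 0.5), two-sided. Genes entered if 2 or more libraries reached 10 reads, scaled to the median library size, and all libraries together 15. It was used with Benjamini-Hochberg adjustment over all tested genes and a threshold of 0.05. The knockout effects in ORS and IFE, their difference, and ORS against IFE came from the 8 ORS and IFE libraries as 4 groups (4 residual degrees of freedom). The HFSC knockout effect came from the 4 HFSC libraries (2 residual degrees of freedom), and the comparisons of HFSC with ORS and IFE from all 12 (6 residual degrees of freedom). Compartment comparisons are means over both genotypes. Exon lengths are merged GENCODE M21 exons within the gene bounds of the files, and promoters are from RefSeq. The scripts were tested on simulated data. The 9 genes and the 13 lists set beside them were chosen with earlier results of these data known. Named from each list were the called genes with the smallest p, at most 3 in each direction, or where none was called at most 2; not all of these are printed. Alternatives were another pseudocount (0.1), no TMM scaling, the deposited scale, no filter, a filter at 50 reads, limma-voom, other sets of libraries in the fit, a replicate block, sex as a term, control libraries only (as a contrast within the fit of both genotypes), and leaving out each library. The genes most like Grhl3 are not reported here.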

Additional observations from a re-analysis of the deposited data

Results flagged for a closer look

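For 2 of the 9 genes the knockout libraries of 1 compartment all lay on the other side of their controls than those of another compartment. Over the 13117 genes tested in all 3 compartments 14.4% did the same, so nothing particular to the 9 is read from this count. The difference between the effects was not tested in these cases. Trp63 was higher in both HFSC libraries labelled knockout than in both controls (log2 fold change 0.21) and lower in both IFE knockout libraries (-0.17) and both ORS knockout libraries (-0.30). Tfap2a was higher in both HFSC libraries labelled knockout (0.44) and lower in both ORS knockout libraries (-0.30), where the nearest knockout and control libraries both round to 119 CPM. None of these effects passed on its own.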

How the results depend on the processing

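In IFE knockout against control, 0 genes were called, and 1 on the deposited scale, 3 with a filter at 50 reads, 24 with all 12 libraries fitted and 5 with IFE alone; leaving out each library gave 0 to 55. In HFSC 5 were called, and 2 on the deposited scale, 1 without a filter, 0 by limma-voom and 1 with all 12 fitted; leaving out each library gave 1 to 26. Leaving out each library gave 0 to 2 genes in ORS and 0 to 2 for the difference of the effects. For ORS over IFE 2276 genes became 7113 on the deposited scale, 923 in controls only and 1138 with sex as a term (1224 to 2687 without each library), and the 8 called of the 9 became 3 in controls only and 4 with sex (5 to 8 without each library). For HFSC over ORS 4353 genes became 7435 on the deposited scale and 2413 in controls only, and 5 of the 9 became 3 in controls only (3126 to 4863 genes and 4 to 6 of the 9 without each library). For HFSC over IFE 5498 genes became 3341 in controls only, and 6 of the 9 became 3 (4199 to 5739 genes and 3 to 6 of the 9 without each library). Counts moved by over 1.5 times for ORS over IFE without ORS control E341 (1266 genes), ORS control E344 (1224) or ORS knockout E359 (1505). In the knockout comparisons the highest counts came without IFE knockout E359 (55 genes in IFE), HFSC control L136 (18 in HFSC) or HFSC control L94 (26 in HFSC). The titles share the numbers E341, E358 and E359 between IFE and ORS, but the labels do not say what a number marks. Deviations of same-numbered libraries correlated at 0.049 to 0.056 over 14449 genes, where E358 and E359 share a value by construction. Same-numbered libraries agreed in sex by their reads. A low correlation does not settle whether they share an animal, and the numbers were not taken to pair samples in the main fit. A replicate block gave 2585 genes for ORS over IFE, 8 of the 9 among them, and 0 in both knockout effects and in their difference. The deposited scale turned the direction of Tfap2a for ORS over IFE (0.33) and of Klf5 (-0.03) and Grhl1 (-0.57) for HFSC over ORS. With sex as a term the IFE knockout effect was -0.56 for Grhl2, 2.26 for Grhl3 and -0.35 for Tfap2a, the ORS effect 0.09 for Klf4 and 0.94 for Grhl3, and their difference 0.14 for Grhl2 and -1.32 for Grhl3 (-0.03 by limma-voom). That term is the gap between ORS controls E341 and E344, the only pair of differing sex in these groups. The IFE values are shifted by this gap and are not IFE effects freed of sex. The ORS values are those without E341, and the differences those without E344. Ovol1 for HFSC over IFE was -0.68 in controls only and -0.60 to 0.70 without each library. Without each library the IFE effect spanned -0.12 to 0.12 for Klf5, -0.69 to 0.46 for Grhl1, -0.22 to 0.26 for Tfap2a, -2.45 to 0.16 for Ovol1, -0.03 to 0.34 for Grhl2 and -0.14 to 1.13 for Zfp750. The ORS effect spanned -0.40 to 0.21 for Klf4, -1.90 to 0.94 for Grhl3 and -0.42 to 0.30 for Grhl2. The HFSC effect spanned -0.16 to 0.28 for Grhl2, -0.52 to 1.93 for Grhl3 and -0.08 to 0.71 for Ovol1. The difference spanned -0.08 to 0.81 for Klf4, -1.32 to 1.52 for Grhl3, -0.58 to 0.14 for Grhl2, -0.34 to 0.10 for Trp63 and -2.40 to 0.27 for Ovol1. The causes of these changes were not tested. A lone library left in a group is assumed to vary like the other groups. With 2 libraries a group, and down to 9 reads for Ovol1 in ORS knockout E358, effects of the size seen for Zfp750 in ORS did not pass among 14449 genes.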

Other observations

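Markers of other skin cell types were summed per library. Ptprc and Cd207 had 0 reads in all libraries, and the 7 listed immune markers summed to 30 to 60.7 CPM in HFSC, 11.2 to 14.9 CPM in ORS and 11.7 to 25.6 CPM in IFE libraries. Cd74, the invariant chain of class II antigen presentation, averaged 25.9 ± 13.2 CPM in HFSC, 0.698 ± 0.949 CPM in ORS and 2.56 ± 3.77 CPM in IFE libraries (SD, n = 4 each; limma's adjusted p = 0.000338 for HFSC over ORS and 0.00099 for HFSC over IFE). Endothelial markers summed to at most 4.24 CPM in HFSC, 2.57 CPM in ORS and 6.39 CPM in IFE libraries. Melanocyte markers summed to 203 to 309 CPM in HFSC, 71.0 to 75.9 CPM in ORS and 14.4 to 29.6 CPM in IFE libraries, with Mitf, which other cells also use, at 217 ± 43.6 CPM in HFSC and 50.1 ± 10.2 CPM in ORS. Fibroblast markers summed to 780 to 1268 CPM in HFSC, 192 to 254 CPM in ORS and 860 to 1380 CPM in IFE libraries, with Col3a1 at 0 in both libraries of 5 of the 6 groups. Sparc, a matrix protein gene that is not limited to fibroblasts, carried most of these sums at 1001 ± 191 CPM in HFSC, 128 ± 7.22 CPM in ORS and 825 ± 180 CPM in IFE, while Dcn, encoding decorin, averaged 4.62 ± 5.5 CPM in HFSC, 43.5 ± 5.19 CPM in ORS and 202 ± 63.5 CPM in IFE (limma's adjusted p = 0.00395 for HFSC over ORS). The inner root sheath list summed to 438 to 614 CPM in HFSC, 300 to 379 CPM in ORS and 881 to 1043 CPM in IFE libraries, where Gata3, which is also a transcription factor of epidermis, made up nearly all of the IFE sum.

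Of the hair follicle stem cell markers, 6 of 10 tested were higher and 1 lower in ORS than in IFE. Over all genes 15.8% were called in that comparison, 8.35% higher and 7.41% lower. Lgr5, a receptor of cycling follicle stem cells, averaged 394 ± 71.4 CPM in ORS and 1.09 ± 1.98 CPM in IFE libraries (SD, n = 4 each; limma's adjusted p = 4.82e-06), and Lhx2, a bulge transcription factor, averaged 264 ± 39.1 CPM in ORS and 4.35 ± 2.26 CPM in IFE (limma's adjusted p = 3.54e-06). HFSC was higher than IFE for 9 of 11 and lower for 0, against 36.1% of all genes called. HFSC was higher than ORS for 4 of 11 and lower for 1, against 28.5% of all genes called. Between ORS and IFE 2 inner root sheath genes were higher and 1 lower in ORS of 6 tested, 3 sebaceous genes higher and 0 lower of 9, 1 melanocyte gene higher and 0 lower of 4, and 1 fibroblast gene higher and 2 lower of 6. By limma 0 of 3 tested immune genes and 0 of 1 tested endothelial gene passed there, with 0 of either at an unadjusted p under 0.05.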
